A study of Mus musculus with 11 samples.

Results

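The receptors described here are 10 transmembrane serine/threonine kinases that bind activins, bone morphogenetic proteins (BMPs) and transforming growth factor-beta (TGF-beta): Acvr1c, Acvr1, Acvr1b, Bmpr1a, Bmpr1b and Tgfbr1 (type I) and Acvr2a, Acvr2b, Bmpr2 and Tgfbr2 (type II). All 10 were found among the 48709 genes counted and all 10 were among the 17365 genes with enough counts to test. The family was chosen by Acvr1c, whose lower level in the mimic samples was already known from these samples, so the difference in Acvr1c between the groups is given as a description with no test. The other 9 were taken by family name.

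RNA was sequenced from primary hippocampal neurons of CD1 mouse embryos (embryonic day 17), which were treated at day 10 in vitro with lipid nanoparticles and harvested at day 12. Per the study's methods, ApoE4 was given along with the particles in both groups. The 5 mimic samples received a synthetic copy of the microRNA miR-181a-5p, and the 6 control samples received a scrambled negative control oligonucleotide in the same kind of particle. Hippocampi of several embryos were pooled for such cultures, and the labels do not say which samples came from separate cultures, so the p-values measure the spread between these samples, which may be technical. The question was which transcripts differ when miR-181a-5p is raised in these neurons.

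A ligand of this family brings type II and type I receptors together. The type II receptor then phosphorylates the type I receptor, and the type I receptor phosphorylates a SMAD protein, which enters the nucleus with SMAD4. Activin and TGF-beta receptors (Acvr1b, Acvr1c, Tgfbr1) mostly act through SMAD2 and SMAD3, whereas BMP receptors (Acvr1, Bmpr1a, Bmpr1b) mostly act through SMAD1, SMAD5 and SMAD9. In the hippocampus, activin and BMP signalling is known for roles in synapses, in neuronal survival and in the division of neural stem cells.

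A microRNA finds its targets mainly by pairing nucleotides 2 to 8 of its 5′ end, the seed, with the 3′ untranslated region (3′ UTR) of a messenger RNA. The sequences below show which seed was added to each group. The seed is in capitals. The mature mouse sequence is from RefSeq (GRCm38.p6), where it comes from Mir181a-1 (chr1:137966468-137966490, plus strand) and Mir181a-2 (chr2:38852741-38852763, plus strand), and both oligonucleotides are from the study's list.
mmu-miR-181a-5p: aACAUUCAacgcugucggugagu
mimic: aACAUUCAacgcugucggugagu
negative control: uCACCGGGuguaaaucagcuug
The mimic was identical to the mature microRNA over its 23 nucleotides.

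Matches were searched on the sense strand of each gene's longest annotated 3′ UTR. They were TGAATGT (nucleotides 2 to 8), TGAATGTA (the same 7 letters followed by A, an 8-nucleotide match) and GAATGTA (nucleotides 2 to 7 followed by A), with each place counted once under its longest form. The 10 receptors held 13 such places, of which 3 were 8-nucleotide matches, 4 were matches of nucleotides 2 to 8 without the A and 6 were matches of nucleotides 2 to 7 before an A. The 9 windows with nucleotides 2 to 8, or from Acvr1c, are printed because Acvr1c and Tgfbr1, the receptors with the strongest matches, had log2 fold changes of opposite sign. The sign of Acvr1c was already known when the family was chosen. Each is 30 bases of the transcript, 5′ to 3′, on GRCm38 (mm10), with the match in capitals.
Acvr1c, chr2:58271264-58271293, minus strand: ctcttttttcacttgtgGAATGTAttatct
Acvr1c, chr2:58270700-58270729, minus strand: gcacaaaatgaaaatgaGAATGTAaaagtt
Acvr1c, chr2:58269479-58269508, minus strand: gttatgggagttttgatTGAATGTgggtct
Acvr1c, chr2:58267965-58267994, minus strand: cttccacaggctcaaaTGAATGTAcataag
Tgfbr1, chr4:47411177-47411206, plus strand: tttccttggttcacttTGAATGTActgttc
Tgfbr1, chr4:47411925-47411954, plus strand: gcagatatagttaataTGAATGTAcaagtg
Acvr2a, chr2:48900257-48900286, plus strand: caacatgacacagcttgTGAATGTgtagtg
Acvr2b, chr9:119434650-119434679, plus strand: tcgctcgctccaggcggTGAATGTtcttaa
Bmpr2, chr1:59870958-59870987, plus strand: ttctcgtgtattttattTGAATGTgcaata

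The matches of Acvr1c lay far from the coding sequence. They began 3642, 4206, 5427 and 6940 bases after the stop codon, in a 3′ UTR of 7465 bases, and the 8-nucleotide match was the most distal. All 4 were in the longest of the 4 annotated 3′ UTRs of Acvr1c and in none of the others, which were 3096, 183 and 183 bases long. In Tgfbr1, both 8-nucleotide matches were close to the stop codon, at 416 and 1164 bases of 4154, and were held by 2 of its 4 annotated 3′ UTRs. The single matches of Acvr2a and Bmpr2 began 486 and 490 bases after the stop codon. Acvr1b had 2 matches of nucleotides 2 to 7 before an A, Bmpr1a and Bmpr1b had 1 each, and Acvr1 and Tgfbr2 had no match of 7 or more nucleotides.

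**Figure D1:**
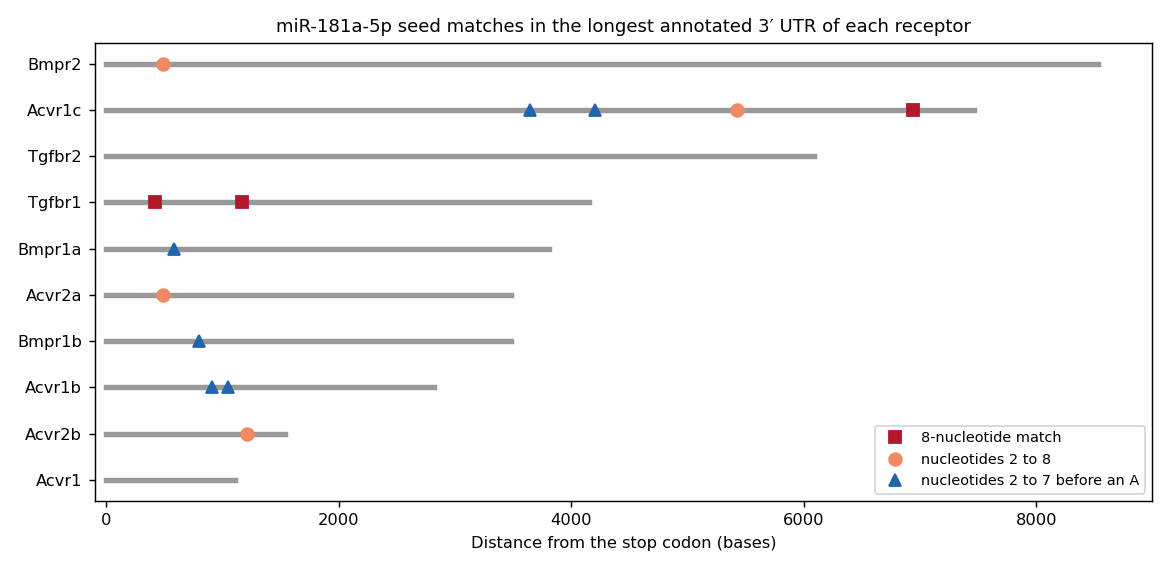
Places of the miR-181a-5p seed matches along the longest annotated 3′ UTR of each receptor (grey bars; horizontal axis, bases from the stop codon; vertical axis, receptors in order of 3′ UTR length). The 4 matches of Acvr1c start at 3642 bases or later, whereas the matches of the 7 other receptors that have any start within 1206 bases of the stop codon.

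Several receptors held matches, and most had long 3′ UTRs. A match of nucleotides 2 to 8 was found in 5 of 10 receptors and in 19.2% of the 14506 tested genes with a 3′ UTR, and an 8-nucleotide match in 2 of 10 receptors and in 6.20% of those genes. Any match of 7 or more nucleotides was found in 8 of 10 receptors and in 24.8% of the genes. The median 3′ UTR was 3646 bases long in the receptors and 1374 bases in the tested genes, and 9 of the 10 receptors were above the latter. Among the 3673 tested genes with a 3′ UTR of 2500 or more bases, 40.2% held a match of nucleotides 2 to 8. All receptors but Acvr1 and Acvr2b are that long, and 4 of them held one. Among the 225 tested genes with a 3′ UTR of 7000 or more bases, as Acvr1c and Bmpr2 have, 79.6% held a match of nucleotides 2 to 8. The 5 receptors with such a match include Acvr1c, by which the family was chosen. At least 4 matches of 7 or more nucleotides, as in Acvr1c, were held by 0.738% of the genes, and at least 2 8-nucleotide matches, as in Tgfbr1, by 0.655%. The matches of the control oligonucleotide (CCCGGTG, and CCGGTGA) occurred in none of the 10 receptors and in 5.11% of the genes. Of the 10 receptors, Acvr1c, Acvr2a, Bmpr2 and Tgfbr1 were on the study's list of predicted miR-181a-5p targets, which held 1121 names.

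Total counts per sample ranged from 17287168 to 48091231, control replicate 1 being the deepest, and a count of 0 allows up to 3 counts, or 0.063 to 0.175 CPM (counts normalised to library size, with library sizes scaled by the TMM method). Such limits cover counting error only. The smallest count of any receptor in any sample was 32, for Acvr2b. All 10 neuron markers examined were detected in every sample and summed to 8593 to 8799 CPM in control and 8394 to 8544 CPM in mimic, with Slc17a7, a glutamate transporter of synaptic vesicles, called lower. The 8 astrocyte markers summed to 4511 to 4890 CPM in control and 4148 to 4396 CPM in mimic, with Slc1a2, a glial glutamate transporter, called lower, so the cultures also held RNA of glia. In both sums every mimic sample was below every control sample, but the single markers did not all move alike. Of the neuron markers, 8 had a log2 fold change below 0 and 2 above (Tubb3 at 0.015 and Stmn2 at 0.038). Of the astrocyte markers, 6 were below 0 and 2 above (Slc1a3 at 0.001 and Gja1 at 0.055), and Aldh1l1 was at -0.001. The mean of Slc1a2 alone was 2398 CPM in control and 2109 CPM in mimic. Since these are bulk samples, fewer cells of a type and less RNA per cell cannot be told apart. In the whole comparison edgeR's quasi-likelihood test called 495 genes, 2.85% of 17365, at an adjusted p below 0.05, with 307 lower in mimic (1.77%) and 188 higher (1.08%). For reference, all 5 mimic values lay below all 6 control values in 1.73% of the tested genes and above them in 1.16%.

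Acvr1c (ALK7) is the type I receptor for nodal and for activins that contain the beta-B subunit. In control samples its level was 7.46 CPM at the lowest, 7.98 at the median and 8.82 at the highest. In mimic replicates 1 to 5 it was 5.83, 5.51, 6.54, 5.18 and 6.92 CPM. Every mimic sample was below every control sample, and replicate 5 was the mimic sample nearest to them. The control mean was 8.04 ± 0.456 CPM (SD, n = 6), the mimic mean was 6.00 ± 0.722 CPM (SD, n = 5), and the log2 fold change was -0.43. This difference is what the family was selected on. The neuron and astrocyte marker sums given above were also lower in every mimic sample, though not all of the single markers were. The part of these markers in the Acvr1c values was not tested. The values rest on 115 to 378 counts per sample, for which counting alone gives a coefficient of variation of 7.14% in control and 8.76% in mimic. The observed ones were 5.67% in control and 12.0% in mimic.

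The other type I receptors of the activin and TGF-beta branch are Acvr1b and Tgfbr1. Acvr1b (ALK4), the main activin type I receptor, lay between 136 and 148 CPM in control (median 142). In mimic replicates 1 to 5 it was 152, 146, 146, 147 and 147 CPM. All mimic values were above the control median, 1 of them above the control range, and the groups overlapped. The log2 fold change was 0.05 (SE 0.026, adjusted p = 0.367, 95% interval -0.004 to 0.105).

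Tgfbr1 (ALK5), the TGF-beta type I receptor and the receptor with 2 8-nucleotide matches, was higher rather than lower in the mean. Control values were 20.01 CPM at the lowest, 20.9 at the median and 21.6 at the highest. Mimic replicates 1 to 5 had 21.1, 21.7, 21.3, 22.03 and 27.9 CPM. Of these, 3 were above the control range and none was below it, but replicate 5 stood well above the others. The log2 fold change was 0.13 (SE 0.058, adjusted p = 0.258 over all genes, edgeR), and without mimic replicate 5 it was 0.06 (adjusted p = 0.615). Among the 95 tested genes with at least 2 8-nucleotide matches, the median log2 fold change was -0.07 and the central 90% ran from -0.22 to 0.11, so Tgfbr1 lay above that span. This place rests on mimic replicate 5, since the 0.06 without it lies inside the span, which was computed with all samples.

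The type I receptors of the BMP branch differed little between the groups. Acvr1 (ALK2), which transmits BMP signals, was 60.9 to 63.7 CPM in control (median 62.2) and 59.0, 60.2, 57.2, 62.3 and 62.2 CPM in mimic replicates 1 to 5. Its log2 fold change was -0.05 (SE 0.031, adjusted p = 0.501, 95% interval -0.11 to 0.02), with 3 of 5 mimic values below the control range. Bmpr1a (ALK3), a principal BMP type I receptor, was 77.1 to 89.9 CPM in control (median 83.2) and 80.05, 77.8, 82.1, 75.4 and 90.6 CPM in mimic, a log2 fold change of -0.04 (SE 0.043, adjusted p = 0.753, 95% interval -0.13 to 0.05). Bmpr1b (ALK6), its close relative, was 12.3 to 14.7 CPM in control (median 13.8) and 12.2, 12.9, 12.8, 13.6 and 14.1 CPM in mimic, a log2 fold change of -0.05 (SE 0.057, adjusted p = 0.766, 95% interval -0.17 to 0.07). All 3 overlapped between the groups.

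Among the type II receptors, both activin receptors overlapped between the groups. Acvr2a, which binds activins and several BMPs, was 80.7 to 90.4 CPM in control (median 84.5) and 82.7, 80.4, 77.0, 77.6 and 89.5 CPM in mimic replicates 1 to 5. Its log2 fold change was -0.06 (SE 0.036, adjusted p = 0.486, 95% interval -0.13 to 0.02). Acvr2a shares 446 exonic bases with Orc4, a replication origin gene on the opposite strand, and the library kit does not mark strand, so reads of both genes there cannot be told apart. Acvr2b, its paralogue, was the receptor with the fewest counts (32 to 87 per sample), at 1.59 to 2.16 CPM in control (median 1.82) and 2.28, 1.59, 1.73, 1.71 and 1.52 CPM in mimic. Its log2 fold change was -0.04 (SE 0.135, adjusted p = 0.930), and its 95% interval of -0.32 to 0.23 is the widest of the tested receptors.

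The mimic samples of Bmpr2, the BMP type II receptor, were spread widely on both sides of a narrow control range. Control values lay between 242 and 250.5 CPM (median 244). Mimic replicates 1 and 5 were at 259 and 276 CPM, above every control sample, and replicates 2, 3 and 4 were at 232, 218 and 221 CPM, below every control sample. The log2 fold change was -0.02 (SE 0.055, adjusted p = 0.900, 95% interval -0.15 to 0.10), and it was 0.01 without mimic replicate 3 or without mimic replicate 4. The coefficient of variation was 1.30% in control, where counting alone gives 1.29%, and 10.6% in mimic, where counting alone gives 1.39%. The SD of log2 CPM was 7.99 times as large in mimic as in control, and 0.0431% of the 13928 genes averaging 1 CPM or more had a ratio as large (median 1.07). For Tgfbr1 the ratio was 3.54, which 1.51% of the genes reached, and for Acvr1c it was 2.14, which 9.69% reached.

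Tgfbr2, the type II receptor for TGF-beta, had the largest log2 fold change above 0. Control values were 11.4 CPM at the lowest, in replicate 1, 14.9 at the median and 15.8 at the highest. Mimic replicates 1 to 5 had 15.9, 15.8, 14.7, 17.1 and 18.6 CPM, of which 4 were above the control range. The log2 fold change was 0.22 (SE 0.079, adjusted p = 0.152, edgeR, 95% interval 0.06 to 0.39). Without control replicate 1 it was 0.14 (adjusted p = 0.308). When genes with low counts were not removed, the log2 fold change was 0.22 and the adjusted p was 0.00793, so the call turns on the filter. The summed markers of fibroblasts and vascular cells ranged from 294.7 to 435 CPM in control and from 439 to 581 CPM in mimic. Their part in the Tgfbr2 result was not tested.

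**Figure D2:**
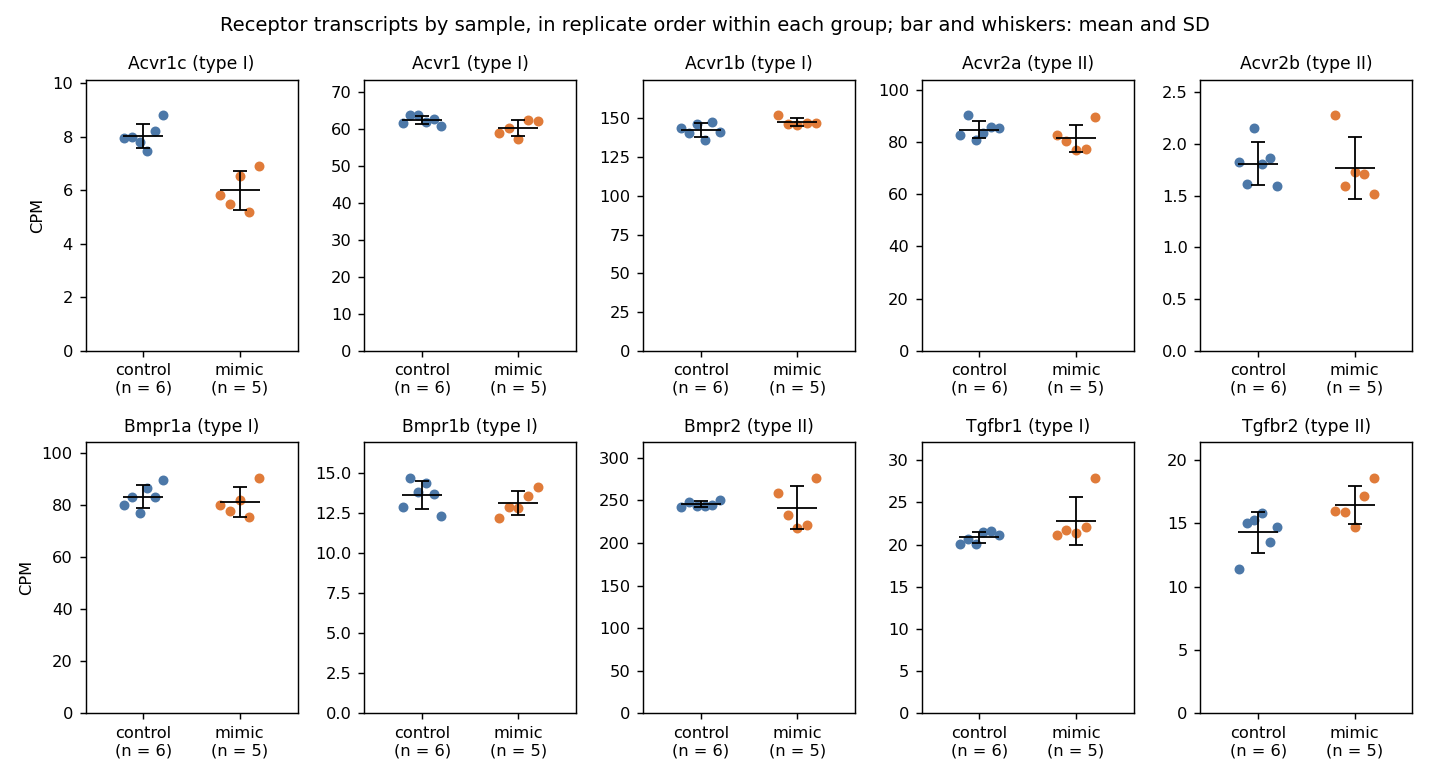
Level of each receptor (vertical axes, CPM from 0) in the 6 control and 5 mimic samples, in replicate order within each group, with the mean and SD as bar and whiskers. The Acvr1c groups do not overlap, Bmpr2 is spread from 218 to 276 CPM in mimic against 242 to 250.5 CPM in control, and 1 mimic sample of Tgfbr1 stands at 27.9 CPM.

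Of the 9 receptors other than Acvr1c, 0 were called by edgeR, against 2.85% of all tested genes, and 2 (Tgfbr1 and Tgfbr2) had an unadjusted p under 0.05, as 15.7% of all tested genes had. DESeq2 and limma on the authors' normalized table also called 0 of the 9. No group of values other than that of Acvr1c was free of overlap. Acvr1c left aside, since the family was chosen by it, 3 of the 9 had a log2 fold change above 0 and 6 below. Their median was -0.04, where the median of all tested genes was -0.0001. By size of log2 fold change the order from low to high was Acvr1c, Acvr2a, Bmpr1b, Acvr1, Acvr2b, Bmpr1a, Bmpr2, Acvr1b, Tgfbr1 and Tgfbr2. Those from Acvr2a to Bmpr2 lay between -0.06 and -0.02 and differed from each other by less than most of their standard errors.

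**Figure D3:**
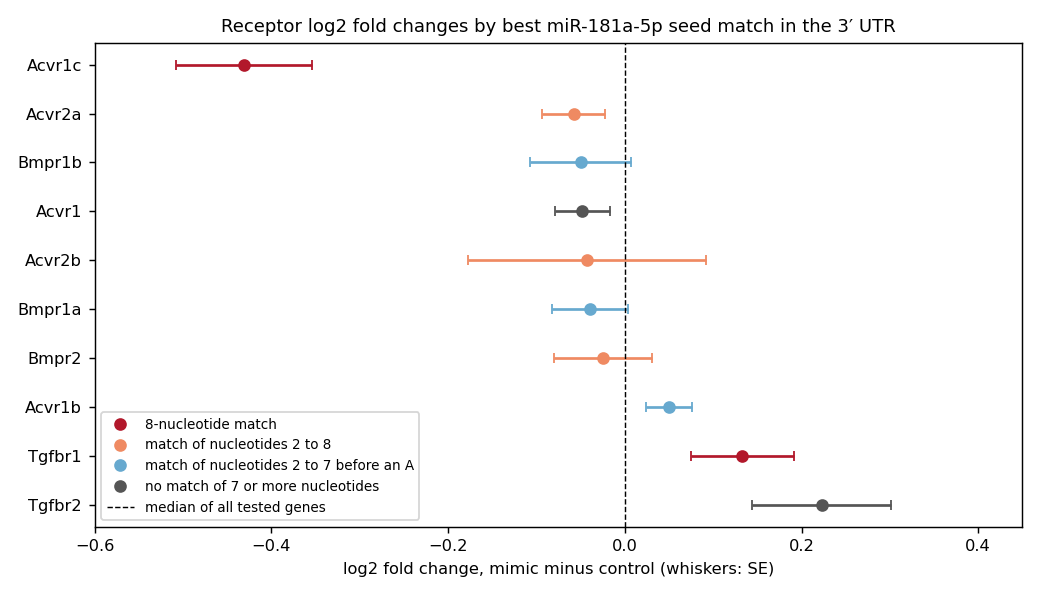
Log2 fold change of each receptor (horizontal axis, mimic minus control, whiskers SE), coloured by its best miR-181a-5p seed match; the dashed line is the median of all tested genes. Acvr1c at -0.43 and Tgfbr1 at 0.13 both hold 8-nucleotide matches, and Tgfbr2 at 0.22 holds no match of 7 or more nucleotides. The family was chosen by the lower level of Acvr1c, so the place of Acvr1c was fixed beforehand and its whisker is not a test.

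The receptors can be read beside all tested genes with the same kind of match. The median log2 fold change was -0.04 over the 899 genes with an 8-nucleotide match, of which 71.6% were below 0, -0.02 over the 2792 genes with a match of nucleotides 2 to 8, of which 62.8% were below 0, and 0.01 over the 10909 genes with no match of 7 or more nucleotides, of which 46.1% were below 0. Among the 107 genes with 4 or more matches the median was -0.06. The other receptors with a match of nucleotides 2 to 8 were Acvr2a at -0.06, Acvr2b at -0.04, Bmpr2 at -0.02 and Tgfbr1 at 0.13. Receptors with no match of 7 or more nucleotides were Acvr1 at -0.05 and Tgfbr2 at 0.22. Of the receptors with 8-nucleotide matches, Tgfbr1 stood next to the high end of the family and Acvr1c at its low end. The family was chosen by the lower level of Acvr1c, so that place was fixed beforehand. It cannot serve in a reading of seed matches against fold change.

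To compare levels between genes, CPM was divided by the length of all annotated exons in kilobases. In control samples Acvr1b was the most abundant receptor, at 32.3 ± 0.984 CPM per exonic kilobase (SD, n = 6). A group of 4 followed, namely Acvr2a at 14.9 ± 0.582, Bmpr2 at 13.6 ± 0.178, Bmpr1a at 13.1 ± 0.709 and Acvr1 at 12.9 ± 0.242 CPM per exonic kilobase. The sample ranges of Bmpr2 and Bmpr1a overlapped, as did those of Bmpr1a and Acvr1, so these neighbours do not differ beyond their spread. Below them came Tgfbr1 at 3.19 ± 0.105, Bmpr1b at 2.29 ± 0.150, Tgfbr2 at 1.74 ± 0.195, Acvr1c at 0.866 ± 0.049 and Acvr2b at 0.461 ± 0.053 CPM per exonic kilobase, with no overlap between neighbours.

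Acvr1c was thus among the least abundant receptors in the control samples. Acvr1b, which passes the same kind of signal, was 37.3 times as abundant per exonic kilobase in control samples. Acvr1c made up 1.34% ± 0.068 of the summed type I receptors in control (SD, n = 6) and 0.992% ± 0.105 in mimic (SD, n = 5), and Acvr1b made up 49.9% ± 1.17 and 51.4% ± 1.40. The summed type I level was 64.7 ± 0.795 CPM per exonic kilobase in control and 65.0 ± 1.66 in mimic, and the summed type II level was 30.8 ± 0.736 and 30.2 ± 2.42. The ratio of type I to type II was 2.10 ± 0.050 in control and 2.16 ± 0.120 in mimic, a difference smaller than the SD of the mimic samples. With the length of the longest transcript in place of all exons, Acvr1b stayed first and the last 5 kept their order. Bmpr2 (19.03) and Acvr1 (18.9) then stood above Acvr2a (14.9) and Bmpr1a (14.0 CPM per kilobase), and Bmpr2 was above Bmpr1a by either length.

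**Figure D4:**
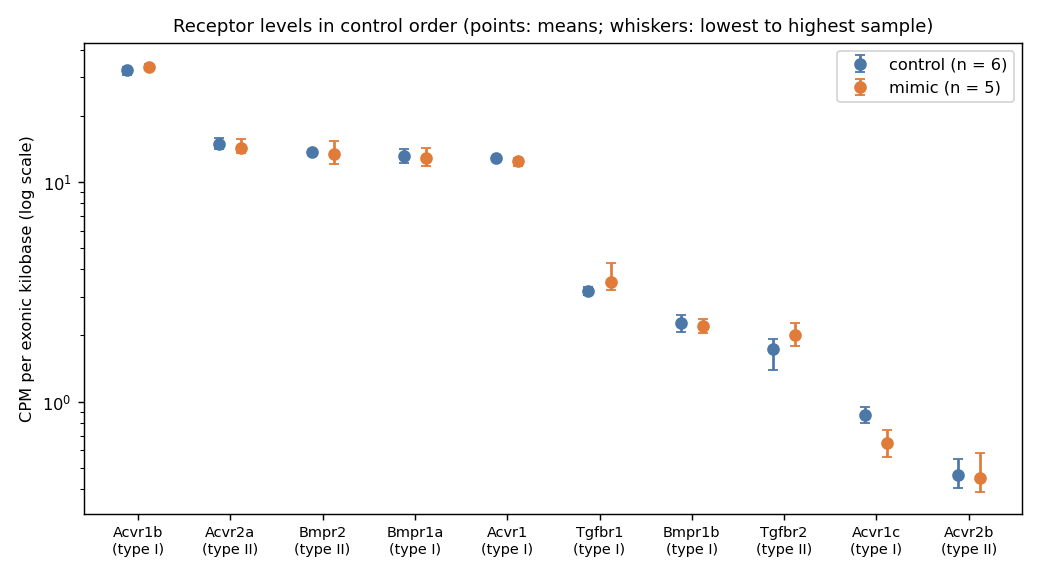
Level of each receptor per exonic kilobase (vertical axis, log scale; points are group means, whiskers run from the lowest to the highest sample) in order of the control level. Acvr1b leads at 32.3 CPM per exonic kilobase, Acvr1c is the ninth of 10, and only for Acvr1c do the control and mimic whiskers not meet.

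Within the groups, mimic replicate 5 often had the highest receptor levels. It was the highest of the 5 mimic samples in 7 receptors (Acvr1c, Acvr2a, Bmpr1a, Bmpr1b, Bmpr2, Tgfbr1 and Tgfbr2), where it was the highest in 24.3% of those 13928 genes. Mimic replicate 3 was the lowest in 5 receptors, and in 19.4% of the genes. Without mimic replicate 5 the log2 fold change of Acvr1c was -0.49, the lowest over the 19 alternative settings. With Acvr1c, the genes whose log2 CPM deviated most alike from the group means over the 11 samples were Papolg, a poly(A) polymerase (Pearson r = 0.964), Map2k6, a kinase of the p38 cascade (r = 0.936), and Mcur1, a regulator of mitochondrial calcium uptake (r = 0.929). These are the 3 highest of 13927 genes compared, and the points share libraries and scaling.

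The rest of the pathway was examined in 6 lists of 79 genes, of which 64 could be tested. Of these, 2 were called, both higher in mimic (3.12% of the 64, against 2.85% of all tested genes), and 0 were called lower. An unadjusted p under 0.05 was found for 12 of the 64 (18.8%), against 15.7% of all tested genes. Both called genes were ligands. Bmp5 and Bmp7, secreted BMPs of one subgroup, rose in mimic, while Gdf11 and Tgfb2, the uncalled ligand genes with the highest CPM, had adjusted p-values of 0.460 and 0.788 by edgeR.

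Bmp5 was at 0.522 CPM at the lowest, 0.803 at the median and 1.01 at the highest in control and at 1.47, 1.03, 0.974, 1.35 and 1.71 CPM in mimic replicates 1 to 5. Of the mimic samples, 4 were above the control range. Its log2 fold change was 0.81 (SE 0.195, adjusted p = 0.0203, edgeR), on 12 to 36 counts per sample, and it was no longer called without control replicate 1, mimic replicate 4 or mimic replicate 5 (adjusted p = 0.0905, 0.0556 and 0.0604). Bmp7 was 16.1 to 20.5 CPM in control (median 17.8) and 21.2, 20.8, 19.7, 21.9 and 20.3 CPM in mimic, with 3 of 5 above the control range. Its log2 fold change was 0.19 (SE 0.053, adjusted p = 0.0464), and the call was lost in 10 of 19 alternatives, where the adjusted p reached 0.128. Those 10 count the fit without control replicate 6 again, as replicates 1 to 5 with no block. The marker sums of fibroblasts and vascular cells given above, with every mimic sample above every control sample, moved the same way. Of 11 such markers tested, 9 had a log2 fold change above 0 (median 0.39), with Cdh5, of endothelial cells, called higher and Rgs5, of pericytes, called lower, and the endothelial marker Cldn5 was at or near 0 in all samples. Their part in the Bmp5 and Bmp7 results was not tested.

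Of the other ligands, Gdf11, a ligand of activin receptors, was at 58.5 ± 1.08 CPM in control and 60.5 ± 1.55 CPM in mimic, and Tgfb2, a ligand of Tgfbr2, at 38.5 ± 2.15 and 39.3 ± 1.36 CPM (SD, n = 6 and 5). Of 30 ligand genes, 18 could be tested, and of these 11 had a log2 fold change above 0 and 7 below, with a median of 0.06. Bmp4, a BMP, was named after its values were seen: its log2 fold change was 0.67 (SE 0.193) with an adjusted p of 0.0549 by edgeR, on 11 to 45 counts per sample. It was called by edgeR without mimic replicate 1 (adjusted p = 0.012), and without mimic replicate 4 the adjusted p was 0.1727.

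The remaining lists held no called gene by edgeR. Among 7 other receptors and co-receptors tested (2 with an unadjusted p under 0.05, median log2 fold change 0.06), the BMP co-receptors Rgmb and Rgma had log2 fold changes of -0.09 (SE 0.030, adjusted p = 0.111) and 0.06 (SE 0.047, adjusted p = 0.619). Endoglin (Eng), a co-receptor of endothelial cells named after its values were seen, was at 1.90 ± 0.322 CPM in control and 2.68 ± 0.686 CPM in mimic, a log2 fold change of 0.56 (SE 0.160, adjusted p = 0.0562). It was called by edgeR without mimic replicate 1 (adjusted p = 0.00714), and without control replicate 1 the adjusted p was 0.1837. Among the 9 SMADs and signal carriers (2 with an unadjusted p under 0.05, median -0.02), the kinase Map3k7 was at -0.02 (adjusted p = 0.864) and Zfyve9, which presents SMADs to receptors, at -0.04 (adjusted p = 0.524).

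Among the 10 extracellular inhibitors (1 with an unadjusted p under 0.05, median -0.05), the BMP-binding proteins Twsg1 and Chrd had log2 fold changes of 0.10 (SE 0.033, adjusted p = 0.106) and -0.07 (SE 0.052, adjusted p = 0.583). Twsg1 was called by edgeR without mimic replicate 3 (adjusted p = 0.0375), and without mimic replicate 1 the adjusted p was 0.2362. Among the 9 intracellular and membrane inhibitors (0 with an unadjusted p under 0.05, median -0.01), Fkbp1a, which binds type I receptors, and the SMAD repressor Ski were at 0.005 (SE 0.025, adjusted p = 0.961) and -0.02 (SE 0.034, adjusted p = 0.868). DESeq2 called 0 genes in each of these 2 lists, in the co-receptors and among the SMADs.

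Target genes are those that active SMADs are known to raise. Of 11 tested, 9 had a log2 fold change above 0 and 2 below (median 0.05), 4 had an unadjusted p under 0.05, and edgeR called 0 and DESeq2 1 (Id3). Id2 and Id3 encode inhibitors of DNA-binding transcription factors and are classical BMP targets. Id2 was at 52.6 ± 2.04 CPM in control and 52.2 ± 2.91 CPM in mimic (log2 fold change -0.01, adjusted p = 0.941). Id3 was 31.1 to 37.8 CPM in control (median 35.0) and 33.4, 42.8, 41.3, 40.7 and 44.1 CPM in mimic replicates 1 to 5. Replicate 1 was inside the control range and the other 4 were above it. The log2 fold change of Id3 was 0.23 (SE 0.064, adjusted p = 0.0632 by edgeR and 0.0188 by DESeq2), and without mimic replicate 1 it was 0.29 (adjusted p = 0.0017, edgeR). Without control replicate 1 it was 0.195 (adjusted p = 0.1135, edgeR), and without mimic replicate 2 it was 0.21 (adjusted p = 0.171, edgeR). Id1 and Ctgf (annotated as Ccn2), named after their values were seen, had log2 fold changes of 0.31 (SE 0.092, adjusted p = 0.0597) and 0.38 (SE 0.107, adjusted p = 0.0545). Both were called by edgeR without mimic replicate 1 (adjusted p = 0.0364 and 0.0245). Without control replicate 1 the adjusted p-values were 0.1895 and 0.1889 by edgeR. Whether the vascular and fibroblast markers have a part in these values was not tested.

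**Figure D5:**
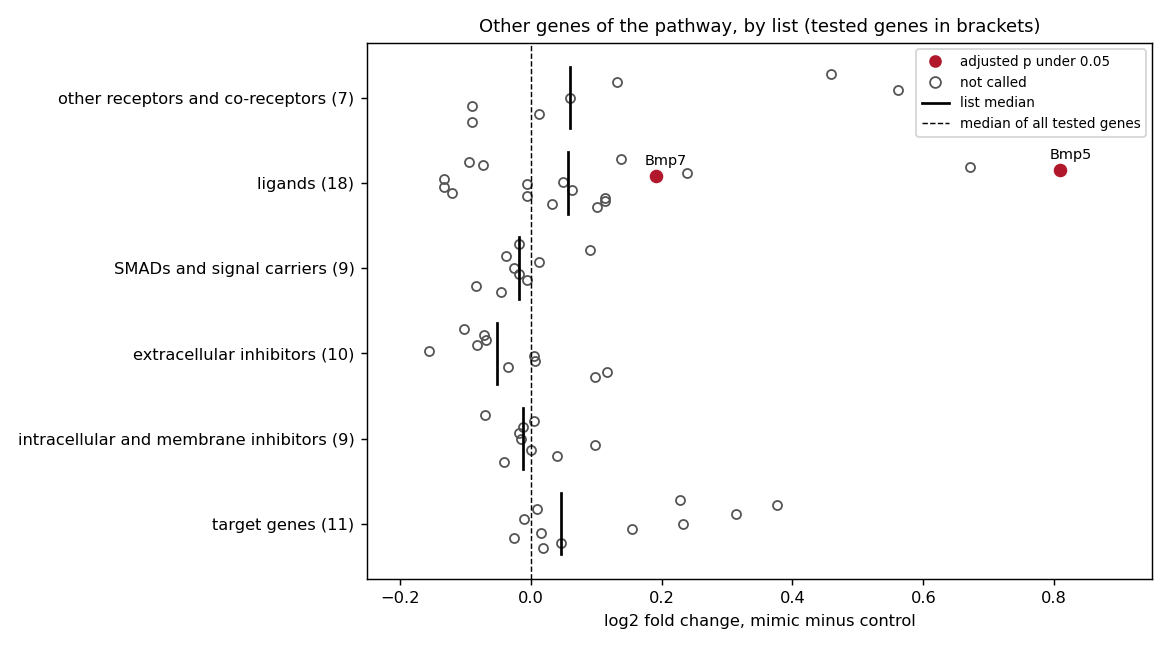
Log2 fold change (horizontal axis, mimic minus control) of the 64 tested genes in the 6 pathway lists, 1 point per gene, with list medians as black bars, called genes filled and the median of all tested genes dashed. The 2 called genes, Bmp5 at 0.81 and Bmp7 at 0.19, are ligands, and the list medians lie between -0.05 and 0.06.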

How the data were processed

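Per the labels and the study's methods, poly(A) RNA libraries (TruSeq RNA v2, which does not mark strand) were sequenced as single-end reads. The authors checked reads with FastQC 0.11.5, aligned them to mm10 with STAR 2.5.2b and counted them with featureCounts (Subread 1.5.1), and deposited 1 table of raw counts per gene and sample. The annotation release and the handling of strand and multi-mapping reads are not given in the sources used here, so counts of paralogues and overlapping genes are uncertain. They also deposited a normalized signal table of the 11 samples, whose columns are the raw counts over 1 size factor each and which served an alternative only.

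The 17365 genes that reached 5 counts in 50% or more of the samples were tested in edgeR 4.0.16 under R 4.3.3 (quasi-likelihood F test, two-sided, TMM scaling, robust dispersions, group as the sole term) and called at a Benjamini-Hochberg adjusted p under 0.05 over all of them. The study's own tool, DESeq2 (1.42.0), and limma 3.58.1 on log2(normalized value + 1) were alternatives, as were other scalings, other filters and leaving out each sample. The pipeline was tested on simulated data. Standard errors come from the log2 fold change and the F value. Gene symbols, exons and 3′ UTRs are from GENCODE M21 (GRCm38), which matched 48349 of 48709 genes. Replicates of a group differed by more than counting noise in every pair (smallest chi-square per degree of freedom 1.25). Groups and replicate numbers are those of the labels, and depth ranged from 17287168 to 48091231 counts.

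The receptors, the pathway and marker lists and the tests were chosen with earlier results of these data known. The text names the 10 receptors, every called gene of the 6 pathway lists, at most 2 uncalled genes per list with the highest mean CPM, and the 3 genes (mean of at least 1 CPM) whose deviations from the group means correlate best with those of Acvr1c. Bmp4, Eng, Id1, Ctgf and the marker genes named were chosen after their values were seen.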

Additional observations from a re-analysis of the deposited data

Results flagged for a closer look

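In the 28 genes named above from the receptor family and the pathway lists, 56 sets of values (1 per gene and group) were searched for a sample far from the others of its group, by Dixon's ratio of the gap to the range of log2 CPM. This found 6, where about 1 in 20, or 2.8, would be the number for independent sets. The sets share the same libraries, and some genes, Eng among them, were named after their values were seen. The 6 can therefore not be read against the 2.8. All 6 were mimic samples. Tgfbr1 in mimic replicate 5 was at 27.9 CPM against 21.1 to 22.03 CPM in the others (ratio 0.845), and Acvr1b in mimic replicate 1 was at 152 CPM against 146 to 147 CPM (ratio 0.771). In mimic replicate 5, Rgma was low at 47.7 CPM against 54.0 to 56.6 CPM (ratio 0.721) and Map3k7 was high at 89.6 CPM against 80.3 to 82.2 CPM (ratio 0.783). In mimic replicate 1, Id3 was low at 33.4 CPM against 40.7 to 44.1 CPM (ratio 0.714) and Eng was low at 1.52 CPM against 2.73 to 3.27 CPM (ratio 0.767).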

How the results depend on the processing

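Of 513 recomputed log2 fold changes of single genes other than Acvr1c, 465 kept their direction and their side of the threshold, 19 became called, 13 lost their call and 16 changed sign. These numbers count the fit without control replicate 6 again, as replicates 1 to 5 with no block. Acvr1c, which was not tested, stayed between -0.49 and -0.37 over its 19 alternatives. The number of genes called in all was 495, and it was 785 with no count filter, 278 without mimic replicate 4, and between 218 (without control replicate 1) and 491 over the samples left out. Receptors called other than Acvr1c were 0, with a range of 0 to 0 over the samples left out, and 1 (Tgfbr2) with no count filter. Pathway genes called were 2, and they were 7 with no count filter, 1 with limma on the normalized table, and between 0 (without control replicate 1 or mimic replicate 4) and 6 (without mimic replicate 1) over the samples left out. Over the samples left out, signs changed for Acvr2b (from -0.1415 to 0.0052, with 0.0038 without control replicate 3), Bmpr2 (from -0.0753 to 0.0147, with 0.0096 without mimic replicate 4), Ski (from -0.0373 to 0.0004, with 0.0001 without control replicate 3), Id2 (from -0.0349 to 0.0138, above 0 without control replicates 2 and 4 and mimic replicates 1 and 4) and Fkbp1a (from -0.0047 to 0.0166, below 0 without control replicate 6 and mimic replicates 1 and 3), and Fkbp1a was at -0.0001 with no count filter. The cause of these changes was not tested. Receptors holding a seed match were 5, against 2 for the 8-nucleotide match alone and 8 for any match of 7 or more nucleotides. The level of Acvr1c was 0.849 to 0.878 CPM per exonic kilobase over the control samples left out.

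The replicate numbers of the labels did not pair the samples, as the correlation of same-numbered samples' deviations ran from -0.023 to 0.016 over 5 pairs. With a replicate block on numbers 1 to 5, 328 genes were called, against 350 in the same 10 samples with no block (chosen after seeing the data), where 1 pathway gene was called. That fit with no block is the same as the one without control replicate 6. With the block 0 receptors and 3 pathway genes were called, namely Bmp5, Eng (adjusted p = 0.0458) and Id3 (0.00278), while Bmp7 was not (0.0722), and Fkbp1a was at -0.0046 (-0.0047 in those samples with no block). Depth limits Bmp4, Bmp5, Eng and Acvr2b, which had 11 to 45, 12 to 36, 30 to 78 and 32 to 87 counts per sample.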
